A study of Rattus norvegicus with 6 samples.

Results

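Growth factors, the receptors that bind them and the Sprouty inhibitors of receptor signalling were followed in mesenchymal stem cells from rat bone marrow, stromal cells able to become bone, fat or cartilage cells. The 47 genes were chosen by name and grouped by family: platelet-derived growth factors (PDGF), vascular endothelial growth factors (VEGF) with angiopoietin relatives, fibroblast growth factors (FGF), hepatocyte growth factor (HGF), epidermal growth factors (EGF), neurotrophic and heparin-binding factors, and Sprouty genes. Of these, 45 were found among the 21026 gene rows of the table; Fgf5 and Ntf3 were not analysed here. They comprise 29 ligand genes, 13 receptor or co-receptor genes and 3 inhibitor genes.

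The study compared cells labelled aged (3 libraries) with cells labelled young (3 libraries) by sequencing of polyadenylated RNA. The labels give no genotype, strain, agent, age in months, sex, passage or number of animals, and they do not say whether the numbered biological replicates came from separate animals. The p-values therefore rest on library-to-library spread, part or all of which may be technical. Fewer cells of a type and less RNA per cell cannot be told apart in such bulk samples.

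Growth factors of these families are secreted or membrane-bound proteins that pair receptor tyrosine kinases on the cell surface, and the paired kinases switch on the RAS-ERK and PI3K pathways inside the cell. The pathways in turn raise genes such as the Sprouty and dual-specificity phosphatase genes, which damp the signal. In marrow stroma, PDGF receptors mark and drive mesenchymal cells, VEGF and FGF2 link bone repair to blood vessel growth, and HGF and the FGF7 and FGF10 pair act on neighbouring cells.

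Aged libraries held 34638874 to 38921547 counts and young libraries 40180480 to 42479626. Levels are given in CPM, counts scaled for depth and by TMM (a factor that removes differences in overall composition between libraries); they compare a gene across libraries, not genes with each other. A count of 0 allows a level of up to 3 counts, which was 0.0688 to 0.0769 CPM in aged and 0.0791 to 0.0840 CPM in young libraries, counting error only. A gene was called when its adjusted p was under 0.05 in edgeR's quasi-likelihood test over all 14273 tested genes, and 86.4% of all tested genes were called. Transcripts encoded by mitochondrial DNA made up 4.25% to 4.46% of counts in aged and 1.07% to 1.36% in young libraries, so the groups also differed in library composition. Scaling by library size alone shifted the log2 changes of all genes by a median of 0.34 towards aged. Of 8 stromal markers, all tested, 5 were lower (Col1a1, Col1a2, Col3a1, Thy1 and Prrx1), 2 higher (Nt5e 4.48-fold, and Lepr, with 68 counts in aged and 13 in young libraries and no young library above the filter on low counts) and Eng was not called. Their summed level, carried mostly by Col1a1 and Col1a2, was 21529 to 21767 CPM in aged and 39882 to 40651 CPM in young libraries.

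Among the members, ligand genes were mostly higher in aged cells, while receptor genes were mostly lower and every Sprouty gene was lower. Receptor genes outside the members were not mostly lower, with 8 of 15 tested called higher and 5 lower. Of those 8, Tek, Ret and Ltk entered the test through their aged counts only. The shares over all tested genes were 44.7% higher and 41.8% lower. Of 26 tested ligand genes, 18 were called higher, 7 lower and 1 was not called. Fgf9, Fgf18 and Fgf21 entered the test through their aged counts only, and without these 3 the ligand genes numbered 15 higher, 7 lower and 1 not called. Of 11 tested receptor and co-receptor genes, 3 rose and 8 fell. All 3 Sprouty genes fell. Ereg (epiregulin) rose 14.1-fold and Pdgfc 3.59-fold, whereas Ptn (pleiotrophin) was 157-fold lower, Angptl2 21.9-fold lower and Spry1 8.70-fold lower in aged cells.

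Over all 40 tested members, 21 rose (52.5%, against 44.7% of all tested genes) and 18 fell (45.0%, against 41.8% of all tested genes). Calls with a change of 2-fold or more numbered 10 among higher members, where 29.4% of all tested genes made that mark, and 12 among lower members, where 21.0% of all tested genes did. The groups did not overlap for 39 of the 40, where 87.5% of all tested genes did not overlap. The median log2 change was 0.46 over the ligand genes and -0.52 over the receptor genes, beside 0.05 over all tested genes. Scaled by library size alone, these medians were 0.80 for ligands and -0.18 for receptors, of which 4 were then higher and 6 lower. No young library was above the filter on low counts for Fgf9, Fgf18 and Fgf21, so a difference was built into their inclusion; without them 18 members were higher and 18 lower, and the ligand median was 0.35. The low group also fell short of the 3 libraries the filter needs for Flt1 (2 young libraries above it), Ptn (1 aged library) and Mdk (1 aged library). Without all 6, ligand genes numbered 15 higher and 5 lower, and receptor genes 2 higher and 8 lower. A further 5 members (Pdgfb, Kdr, Angpt2, Erbb3 and Btc) were too low to test.

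**Figure D1:**
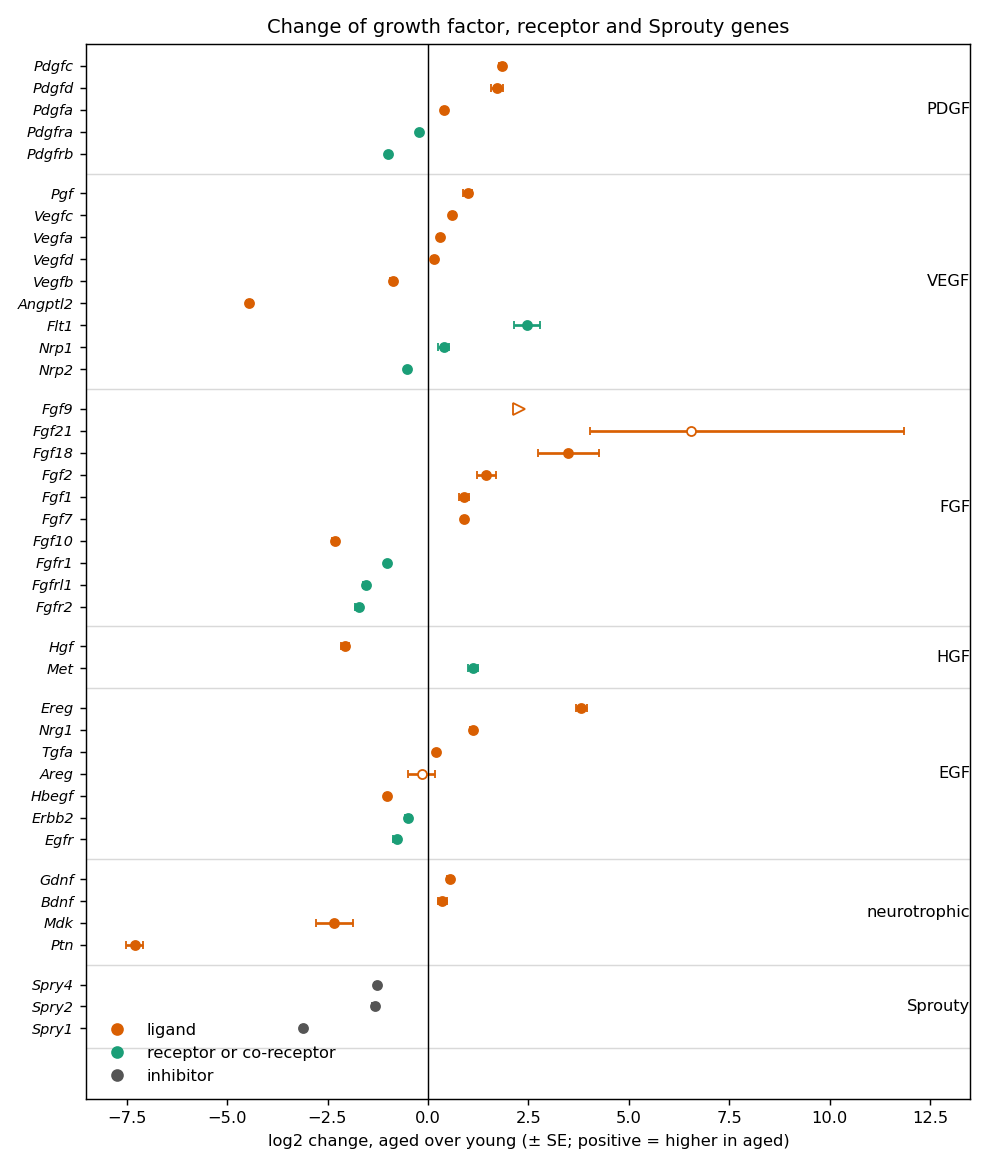
Log2 change of the 40 tested members, aged over young, by family; orange marks ligands, green receptors, grey inhibitors, and bars are standard errors. The arrow for Fgf9 is a lower bound, the open circle and bar for Fgf21 are a count ratio with its 95% interval, and the open circle for Areg marks the member that was not called.

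Long genes had higher changes in this comparison as a whole. Across the 13552 tested genes with a RefSeq gene length (introns included), the median log2 change was -0.43, -0.12, 0.22 and 0.59 in the quartiles ordered from short to long. Of the ligand genes, 9 lay in the longest quartile with a median of 0.61, and the other 17 had a median of 0.39. Of the receptor genes, 7 lay in the longest quartile with a median of -0.52, and the other 4 had a median of -0.73. All 3 Sprouty genes lay outside it. The part of gene length in the changes of single members was not tested.

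The promoters of 5 genes are shown because they belong to the sharpest contrasts among the members: Fgf7 and Fgf10 encode closely related ligands that moved in opposite directions, and Spry1, Spry2 and Spry4 encode related inhibitors that all fell. The sequences are RefSeq promoter windows of build GRCr8, 250 bases before to 50 bases after the start of transcription, read 5′ to 3′ on the gene's strand; 38 of the 45 members had an entry. Fgf7 is at chr3:133735377-133735676, plus strand, Fgf10 at chr2:52533689-52533988, plus strand, Spry1 at chr2:122485097-122485396, plus strand, Spry2 at chr15:89111877-89112176, minus strand and Spry4 at chr18:30702497-30702796, minus strand. Capitals mark matches, on either strand, to any of 6 motifs: AP-1 (TGANTCA), the cyclic AMP response element (TGACGTCA), the E-box (CACGTG), the GC box (GGGCGG), the TATA box (TATAAA) and an Ets site (CCGGAAG).
Fgf7: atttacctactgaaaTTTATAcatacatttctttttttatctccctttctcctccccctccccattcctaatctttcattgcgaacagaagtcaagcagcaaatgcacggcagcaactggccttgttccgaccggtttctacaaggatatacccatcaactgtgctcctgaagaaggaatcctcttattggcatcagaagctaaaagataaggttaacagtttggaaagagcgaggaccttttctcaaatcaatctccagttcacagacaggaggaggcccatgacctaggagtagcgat
Fgf10: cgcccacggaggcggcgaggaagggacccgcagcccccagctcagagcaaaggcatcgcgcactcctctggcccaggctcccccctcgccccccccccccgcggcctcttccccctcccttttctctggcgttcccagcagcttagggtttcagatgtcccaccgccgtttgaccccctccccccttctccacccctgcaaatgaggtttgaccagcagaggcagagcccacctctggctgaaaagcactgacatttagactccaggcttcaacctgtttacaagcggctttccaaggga
Spry1: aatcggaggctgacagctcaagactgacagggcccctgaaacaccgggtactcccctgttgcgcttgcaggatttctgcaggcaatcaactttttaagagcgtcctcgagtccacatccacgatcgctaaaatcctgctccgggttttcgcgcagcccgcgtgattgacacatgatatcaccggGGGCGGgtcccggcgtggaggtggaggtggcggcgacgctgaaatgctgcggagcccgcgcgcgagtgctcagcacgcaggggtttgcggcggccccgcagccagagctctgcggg
Spry2: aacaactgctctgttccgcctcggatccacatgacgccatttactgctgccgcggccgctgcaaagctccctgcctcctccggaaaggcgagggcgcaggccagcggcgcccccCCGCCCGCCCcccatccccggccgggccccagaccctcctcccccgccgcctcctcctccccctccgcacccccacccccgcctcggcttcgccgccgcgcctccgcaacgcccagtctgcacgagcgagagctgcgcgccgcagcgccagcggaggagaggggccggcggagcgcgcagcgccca
Spry4: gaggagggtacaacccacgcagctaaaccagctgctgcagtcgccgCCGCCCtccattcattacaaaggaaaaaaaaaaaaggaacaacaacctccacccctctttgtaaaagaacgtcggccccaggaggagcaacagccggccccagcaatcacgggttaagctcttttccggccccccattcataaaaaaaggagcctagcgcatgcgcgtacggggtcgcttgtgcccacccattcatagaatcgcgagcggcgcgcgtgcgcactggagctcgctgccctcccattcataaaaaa
The GC box was found once in the Spry1 and Spry4 windows and at 2 overlapping positions in the Spry2 window. None of the 6 motifs was found in the Fgf10 window, and the Fgf7 window held 1 match, to the TATA box on the reverse strand. Of all 33469 RefSeq windows of that length, 33.1% hold a GC box and 14.2% a TATA box. GC content was 43.7% in the Fgf7 window, 64.0% in that of Fgf10, and 63.0%, 76.3% and 56.0% in those of Spry1, Spry2 and Spry4. A match is a description of the letters and not a bound site.

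PDGF ligands rose in aged cells and both PDGF receptors fell, Pdgfra only with scalings other than library size alone. The ligand genes Pdgfc and Pdgfd encode the PDGF chains that need proteolytic activation, and Pdgfa encodes the chain that acts through PDGF receptor alpha. Pdgfc had 71.9, 68.9 and 65.7 CPM in aged libraries, against 16.8, 21.1 and 19.6 CPM in young libraries. Every aged library was more than 3 times as high as any young one, and the change was 3.59-fold (log2 change 1.84, SE 0.074, edgeR adjusted p = 1.1e-13). Pdgfd had 7.41, 7.47 and 6.07 CPM in aged libraries, against 2.16, 2.16 and 2.04 CPM in young libraries. It rose 3.29-fold (SE 0.16 on the log2 scale, edgeR adjusted p = 1.2e-08), again with no overlap. Pdgfa rose less, with 104 ± 2.14 CPM in aged and 79.2 ± 4.88 CPM in young cells (SD, n = 3 each; edgeR adjusted p = 9.7e-07). Pdgfb, which encodes the PDGF B chain, had 1 count in all aged libraries and 0 in all young ones.

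Pdgfrb encodes PDGF receptor beta, a receptor of mesenchymal and mural cells. It had 594, 579 and 587 CPM in aged libraries, against 1176, 1144 and 1160 CPM in young libraries. The libraries of each group lay close together, and Pdgfrb fell 1.98-fold (log2 change -0.98, SE 0.028, edgeR adjusted p = 1.1e-15). Pdgfra, encoding PDGF receptor alpha, had 439 ± 6.79 CPM in aged and 511 ± 32.7 CPM in young cells (log2 change -0.22, edgeR adjusted p = 6.7e-05), but the direction turned when libraries were scaled by size alone (log2 change 0.12). The number of Pdgfrb counts per Pdgfra count does not depend on scaling. It was 1.35, 1.30 and 1.36 in aged libraries, against 2.45, 2.10 and 2.29 in young libraries, with no overlap. Beside the change of Pdgfrb, the 5 measured mural and smooth muscle markers summed to 897 to 923 CPM in aged and 706 to 742 CPM in young libraries, with 2 higher and 3 lower. Acta2, with 835 CPM in aged and 588 CPM in young cells, carried most of that sum. Acta2 and Cnn1 were 1.42-fold and 1.14-fold higher, while Mcam, Des and Myh11 were 6.87-fold, 2.44-fold and 2.14-fold lower. Their part in the result was not tested.

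Of the 6 tested VEGF and angiopoietin-like ligands, 4 rose and 2 fell. Vegfa, the main growth factor of blood vessel sprouting, had 444 ± 9.22 CPM in aged and 363 ± 4.19 CPM in young cells, 1.22-fold higher (edgeR adjusted p = 1.5e-07). Vegfc, a ligand of lymphatic vessel growth, rose 1.52-fold, with 63.9 ± 2.16 CPM in aged and 41.9 ± 3.22 CPM in young cells. Its relative Vegfd was 1.11-fold higher, and that call was lost without young replicate 1 (edgeR adjusted p = 0.050). Pgf, encoding placental growth factor, a ligand of the receptor FLT1, had 12.8, 12.5 and 11.1 CPM in aged libraries, against 5.49, 6.96 and 5.96 CPM in young libraries. All aged libraries stood above all young ones, a 1.98-fold rise (edgeR adjusted p = 4.0e-07). Vegfb, which also binds FLT1, went the other way, with 17.5, 20.5 and 21.4 CPM in aged libraries, against 35.4, 36.0 and 37.1 CPM in young libraries. It fell 1.83-fold (edgeR adjusted p = 7.9e-09), and the number of Vegfb counts per Vegfa count was 0.0404 to 0.0475 in aged and 0.0982 to 0.102 in young libraries.

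Among the angiopoietin relatives the fall of Angptl2 stood out in size. Angptl2 encodes a secreted angiopoietin-like protein linked to inflammation. It had 9.03, 10.7 and 9.64 CPM in aged libraries, against 220, 203 and 219 CPM in young libraries. The 21.9-fold fall (log2 change -4.45, SE 0.061, edgeR adjusted p = 1.2e-19) far exceeded the spread within either group. Angpt2, encoding the context-dependent antagonist of the TIE2 receptor, had 3 counts in aged and 12 in young libraries, a young-to-aged ratio of 4.52 with a 95% counting interval of 1.22 to 24.9.

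Of the VEGF receptors and co-receptors among the members, Flt1 and Nrp1 rose, Nrp2 fell and Kdr was too low to test. Flt4, encoding VEGF receptor 3 and named after its values were seen, is among the further receptors. It fell 1.63-fold, with 3.83 ± 0.614 CPM in aged and 6.25 ± 0.941 CPM in young cells (edgeR adjusted p = 6.0e-04). Flt1, encoding VEGF receptor 1, had 3.92, 5.09 and 3.33 CPM in aged libraries, against 0.277, 1.19 and 0.756 CPM in young libraries. The young libraries varied widely but stayed below the aged ones, a 5.52-fold rise (log2 change 2.46, SE 0.32, edgeR adjusted p = 1.7e-06). Kdr, encoding VEGF receptor 2, the main signalling receptor of endothelial cells, had 7 counts in aged and 1 in young libraries. Nrp2, encoding the co-receptor neuropilin 2, had 317, 328 and 316 CPM in aged libraries, against 457, 456 and 463 CPM in young libraries, and fell 1.43-fold (edgeR adjusted p = 4.9e-11). Nrp1, encoding neuropilin 1, had 6.41 ± 0.273 CPM in aged and 4.87 ± 0.578 CPM in young cells (edgeR adjusted p = 0.012), and this call was lost without young replicate 1 (edgeR adjusted p = 0.054). The 7 measured endothelial markers summed to 0.538 to 0.871 CPM in aged and 0.264 to 0.610 CPM in young libraries. Tek had 50 counts in aged and 3 in young libraries and Esam 25 in aged and 3 in young libraries, both higher in aged cells as Flt1 was; Tek was the only one tested, having entered through its aged counts. Vwf had 12 counts in aged and 25 in young libraries, and Tie1 0 in aged and 7 in young libraries. Emcn was at 0 counts in all 6 libraries, Cdh5 had 0 counts in aged and 1 in young libraries, and Pecam1 had 2 in aged and 4 in young libraries. Their part in the result was not tested.

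Among the 4 FGF ligand genes whose inclusion did not rest on aged counts alone, Fgf1, Fgf2 and Fgf7 rose and Fgf10 fell. All 3 FGF receptor genes among the members fell. Fgfr3, a further FGF receptor gene named after its values were seen, was not called (edgeR adjusted p = 0.19). It had 9.27 ± 0.609 CPM in aged and 8.26 ± 1.16 CPM in young cells. The pair of Fgf7 and Fgf10 encodes secreted ligands of the same receptor form, the epithelial splice form of FGF receptor 2. Fgf7 had 305, 309 and 300 CPM in aged libraries, against 160, 179 and 155 CPM in young libraries. The rise was 1.85-fold (log2 change 0.89, SE 0.046, edgeR adjusted p = 4.9e-12). Fgf10 had 34.9, 37.0 and 36.9 CPM in aged libraries, against 166, 203 and 172 CPM in young libraries. The groups were far apart, with a 4.98-fold fall (log2 change -2.32, SE 0.065, edgeR adjusted p = 8.0e-16). Within a library, the number of Fgf10 counts per Fgf7 count was 0.114, 0.120 and 0.123 in aged cells, against 1.04, 1.13 and 1.11 in young cells, a contrast that no scaling of libraries can alter.

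Fgf2 and Fgf1 encode the basic and acidic FGFs, which lack a classical secretion signal and are mitogens of stromal cells. Fgf2 had 4.07, 4.86 and 3.82 CPM in aged libraries, against 2.22, 1.16 and 1.29 CPM in young libraries. It rose 2.74-fold (log2 change 1.45, SE 0.23, edgeR adjusted p = 1.7e-05) without overlap. Fgf2 overlaps Nudt6, which is read from the opposite strand, and the strand setting of the counting is not given, so that reads of the pair cannot be told apart with certainty. Nudt6 had 78, 63 and 44 counts in aged libraries, against 117, 124 and 60 in young libraries. Fgf1 had 7.55 ± 0.288 CPM in aged and 4.05 ± 0.505 CPM in young cells, 1.86-fold higher (SD, n = 3 each; edgeR adjusted p = 7.7e-06).

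The other FGF ligands, whose inclusion rested on their aged counts, were near the detection limit in young cells and are given as counts. Fgf9, a ligand of skeletal growth, had 17, 10 and 21 counts in aged libraries and 0 counts in every young library, at least 4.79-fold higher against a floor of 3 counts per library. Fgf18, which acts on cartilage and bone, had 15, 45 and 33 counts in aged libraries, against 0, 7 and 0 counts in young libraries. Fgf21, a metabolic hormone best known from liver, had 27, 16 and 62 counts in aged libraries and 1 count in all young libraries. The ratio was 93.0 with a 95% exact counting interval of 16.3 to 3707. Of the aged counts, 62 came from aged replicate 3.

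Fgfr1 encodes the main FGF receptor of mesenchymal cells. It had 231, 234 and 229 CPM in aged libraries, against 468, 462 and 480 CPM in young libraries. This was a 2.03-fold fall (log2 change -1.02, SE 0.032, edgeR adjusted p = 4.2e-15) with little spread. Fgfr2, encoding the receptor of FGF7 and FGF10, had 5.98, 6.44 and 6.998 CPM in aged libraries, against 21.3, 21.5 and 21.4 CPM in young libraries. It fell 3.31-fold (SE 0.091 on the log2 scale, edgeR adjusted p = 5.3e-12), and the number of Fgfr2 counts per Fgfr1 count was 0.0259 to 0.0305 in aged and 0.0445 to 0.0465 in young libraries. The gene Fgfrl1 encodes an FGF receptor that lacks the kinase domain. It had 21.5, 25.01 and 24.6 CPM in aged libraries, against 74.3, 65.3 and 68.9 CPM in young libraries, a 2.93-fold fall (edgeR adjusted p = 4.6e-13).

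**Figure D2:**
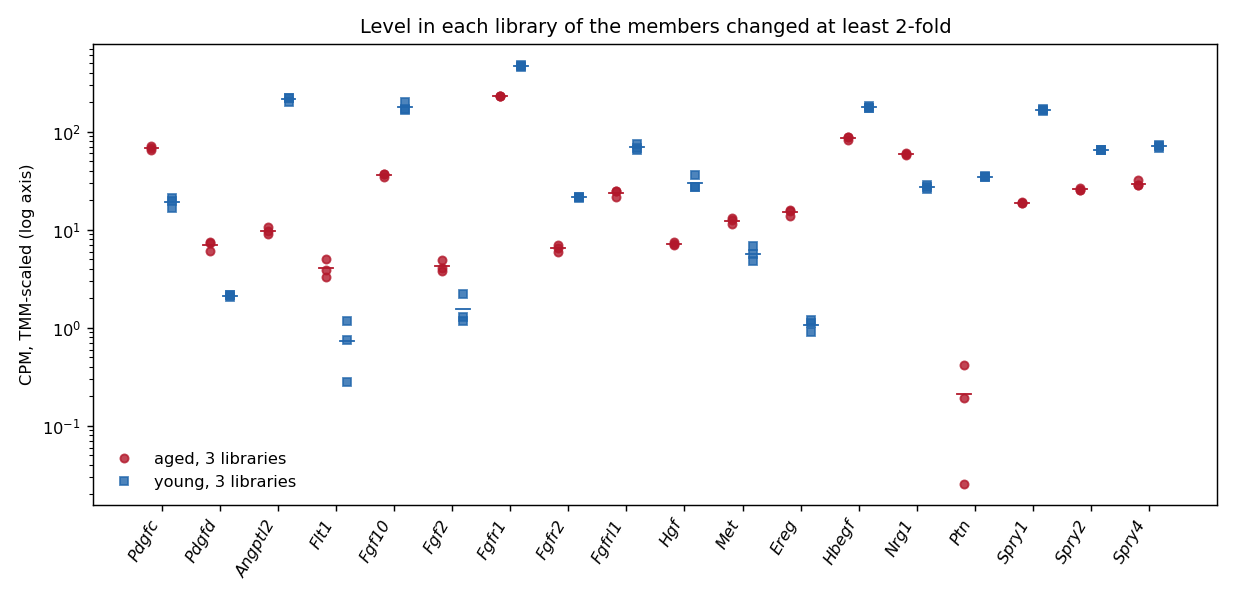
Level in each library (CPM, log axis) of the 18 members that were called with a change of at least 2-fold and averaged at least 1 CPM in a group; circles are aged libraries, squares young libraries, and short lines the group means. The groups do not overlap for any of them, with 7 higher and 11 lower in aged cells.

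Hgf and its receptor gene Met moved in opposite directions. HGF is a stromal ligand that stimulates growth and movement of epithelial and endothelial cells, and MET is its kinase receptor. Hgf had 7.12, 7.59 and 6.95 CPM in aged libraries, against 27.4, 35.9 and 27.6 CPM in young libraries. Young replicate 2 was the highest, and the fall was 4.19-fold (log2 change -2.07, SE 0.11, edgeR adjusted p = 4.5e-12). Met had 12.6, 13.3 and 11.4 CPM in aged libraries, against 5.60, 6.75 and 4.76 CPM in young libraries. The rise of Met was 2.18-fold (log2 change 1.12, SE 0.13, edgeR adjusted p = 2.3e-07). Per Met count there were 0.565, 0.570 and 0.612 Hgf counts in aged libraries, against 4.89, 5.31 and 5.79 in young libraries.

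**Figure D3:**
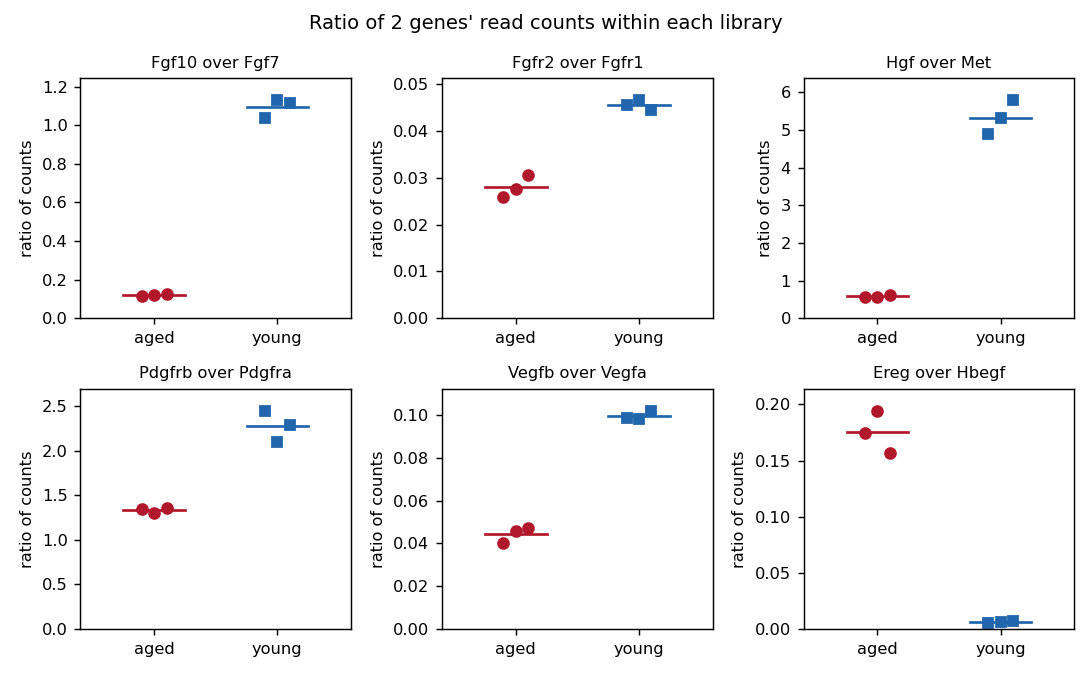
Read counts of 1 gene per read count of another within each library, for 6 pairs; circles are the 3 aged libraries, squares the 3 young libraries, lines the group means, and every axis starts at 0. Such ratios do not depend on library scaling, and the groups do not overlap in any of the 6 pairs; the Fgf10 over Fgf7 ratio lies at or below 0.123 in aged and at or above 1.04 in young libraries.

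The EGF ligands split, and the receptors Egfr and Erbb2 fell, Erbb2 without a call when scaled by library size alone. Ereg encodes epiregulin, a ligand of EGFR and ERBB4. It had 15.6, 16.0 and 13.9 CPM in aged libraries, against 0.914, 1.11 and 1.20 CPM in young libraries. The 14.1-fold rise (log2 change 3.82, SE 0.14, edgeR adjusted p = 4.6e-14) left a wide gap between the groups. Nrg1, encoding neuregulin 1, a ligand of ERBB3 and ERBB4, had 60.6, 57.4 and 59.0 CPM in aged libraries, against 26.3, 27.4 and 28.3 CPM in young libraries, 2.16-fold higher (edgeR adjusted p = 4.2e-12). Tgfa, encoding transforming growth factor alpha, rose 1.15-fold, with 115 ± 2.92 CPM in aged and 100 ± 4.38 CPM in young cells (edgeR adjusted p = 3.4e-04).

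Hbegf encodes heparin-binding EGF-like growth factor, a membrane-anchored ligand. It had 89.3, 82.7 and 88.8 CPM in aged libraries, against 175, 181 and 176 CPM in young libraries. It fell 2.04-fold (log2 change -1.03, SE 0.043, edgeR adjusted p = 1.8e-13), so the number of Ereg counts per Hbegf count was 0.157 to 0.194 in aged and 0.00523 to 0.00683 in young libraries. Areg, encoding amphiregulin, had 1.19, 1.399 and 1.67 CPM in aged libraries, against 1.99, 1.95 and 0.784 CPM in young libraries. The groups overlapped and Areg was not called (log2 change -0.16, SE 0.33, edgeR adjusted p = 0.66). Btc, encoding betacellulin, had 0 counts in aged libraries and 4 in young ones, all in young replicate 2.

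Egfr, the receptor of most of these ligands, had 14.9, 16.1 and 15.5 CPM in aged libraries, against 24.96, 25.5 and 29.6 CPM in young libraries. It fell 1.72-fold (edgeR adjusted p = 8.3e-08), with all aged libraries below all young ones. Erbb2, encoding the partner receptor without a ligand of its own, had 22.7 ± 0.480 CPM in aged and 31.8 ± 2.90 CPM in young cells (edgeR adjusted p = 1.0e-05), and the call was lost when libraries were scaled by size alone (edgeR adjusted p = 0.070). Erbb3, encoding a neuregulin receptor with little kinase activity, had 8, 22 and 5 counts in aged libraries and 0 counts in all young ones, at least 3.36-fold higher. Of 5 measured Schwann and glial markers, Erbb3 among them, 2 could be tested, of which 1 was higher and 1 lower. Foxd3 had 1 count in aged and 0 in young libraries. The 5 markers summed to 23.4 to 23.9 CPM in aged and 57.2 to 58.9 CPM in young libraries, of which S100b made up most. Their part in the result was not tested.

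The neurotrophic ligands rose slightly, and the 2 heparin-binding ligands Ptn and Mdk fell. Ptn encodes pleiotrophin, a heparin-binding cytokine of the stroma that acts in the marrow niche. It had 0.194, 0.413 and 0.0256 CPM in aged libraries, against 34.7, 35.4 and 34.2 CPM in young libraries. The aged values rest on 8, 18 and 1 counts. The change was 157-fold (log2 change -7.30, SE 0.21, edgeR adjusted p = 9.3e-16), or 301-fold without aged replicate 2. Its relative Mdk, encoding midkine, had 0.170 ± 0.0851 CPM in aged and 0.863 ± 0.147 CPM in young cells (SD, n = 3 each), a 5.02-fold fall (edgeR adjusted p = 1.8e-04). Of the receptors of pleiotrophin, named here because of the size of its change, Ptprz1 had 4.07 ± 0.550 CPM in aged and 4.30 ± 0.932 CPM in young cells without a call (edgeR adjusted p = 0.68). Alk had 0 counts in aged and 3 in young libraries.

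Gdnf, encoding the glial cell line-derived factor that signals through RET, had 23.9, 25.3 and 24.7 CPM in aged libraries, against 17.4, 17.8 and 15.7 CPM in young libraries. This 1.45-fold rise (edgeR adjusted p = 3.5e-06) left no overlap. The receptor genes named beside it, after their values were seen, are given for comparison. Gfra1, encoding the GDNF-binding subunit, had 5.86 ± 1.16 CPM in aged and 2.51 ± 0.548 CPM in young cells, and rose 2.34-fold (edgeR adjusted p = 1.3e-05). Ret had 31, 32 and 44 counts in aged libraries, against 5, 0 and 2 in young libraries, and entered the test through its aged counts only. Bdnf, encoding brain-derived neurotrophic factor, had 10.4 ± 0.557 CPM in aged and 8.12 ± 0.858 CPM in young cells, 1.28-fold higher (edgeR adjusted p = 0.0066). Its kinase receptor gene Ntrk2 had 1 count in aged and 0 in young libraries.

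All 3 Sprouty genes fell in aged cells. Sprouty proteins are intracellular inhibitors of RAS-ERK signalling downstream of FGF and other receptors, and ERK activity induces their genes. Spry1 had 18.9, 19.1 and 19.0 CPM in aged libraries, against 161, 165 and 169 CPM in young libraries. This 8.70-fold fall (log2 change -3.12, SE 0.048, edgeR adjusted p = 4.0e-19) was far larger than the spread within either group. Spry2 had 25.5, 26.7 and 25.2 CPM in aged libraries, against 65.1, 64.4 and 64.8 CPM in young libraries, and fell 2.51-fold (edgeR adjusted p = 1.8e-13). Spry4 had 31.8, 28.4 and 28.5 CPM in aged libraries, against 73.5, 68.6 and 71.6 CPM in young libraries, and fell 2.41-fold (edgeR adjusted p = 1.1e-12). The change of Spry1 was the largest of the 3, and the number of Spry1 counts per Spry2 count was 0.714 to 0.754 in aged and 2.48 to 2.61 in young libraries. A GC box lies in the promoter windows of all 3 genes printed above, in 24 of the 38 member windows and in 33.1% of all RefSeq windows.

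Genes that ERK signalling is known to induce, and other feedback genes of the pathway, mostly fell as well. Of 19 listed genes, 15 fell, 3 rose and 1 was not called, beside 41.8% lower and 44.7% higher among all tested genes. The median log2 change of the list was -0.94. Scaled by library size alone, 14 fell and 5 rose, with a median of -0.60. Phlda1, a target of receptor kinase signalling, fell 9.71-fold and had 48.0 ± 1.93 CPM in aged and 466 ± 5.86 CPM in young cells. The early growth response gene Egr1 fell 4.09-fold, with 153 ± 1.399 CPM in aged and 624 ± 15.4 CPM in young cells. Among the listed genes that rose, Etv1, an ETS transcription factor gene, had 20.6 ± 0.380 CPM in aged and 3.52 ± 0.168 CPM in young cells. Spred1, encoding a Sprouty-related inhibitor, had 74.9 ± 1.84 CPM in aged and 17.2 ± 1.86 CPM in young cells (edgeR adjusted p of 2.9e-20 for Phlda1, 1.0e-18 for Egr1, 6.8e-14 for Etv1 and 6.8e-15 for Spred1). The FGF-responsive genes Etv4, Etv5, Dusp6 and Dusp4, named after their values were seen, fell 3.36-fold, 2.46-fold, 1.43-fold and 2.31-fold. Such genes did not all fall: Etv1, a relative of Etv4 and Etv5, rose 5.85-fold. The listed gene Ier3, also named after its values were seen, rose 2.98-fold. It had 384 ± 5.42 CPM in aged and 129 ± 4.03 CPM in young cells (edgeR adjusted p = 6.1e-17). The feedback gene Il17rd was not called (edgeR adjusted p = 0.84).

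The shared signalling chain between receptor and nucleus showed no common direction. Of 31 genes of adaptors, RAS, ERK and PI3K signalling, 18 were called higher and 13 lower, and the median log2 change was 0.62 (21 higher and 10 lower when scaled by library size alone). Among all tested genes, 44.7% were called higher and 41.8% lower. Rasa1, encoding a GTPase-activating protein that switches RAS off, rose 17.5-fold to 120 ± 3.89 CPM in aged cells, against 6.86 ± 1.22 CPM in young cells. Frs2, encoding the docking protein of FGF receptors, rose 9.54-fold to 92.1 ± 2.18 CPM in aged cells, against 9.64 ± 1.43 CPM in young cells. Shc1, encoding an adaptor of receptor kinases, fell 4.52-fold, with 158 ± 3.81 CPM in aged and 713 ± 9.20 CPM in young cells. The kinase gene Map2k2, encoding MEK2, fell 3.16-fold, with 44.0 ± 1.05 CPM in aged and 139 ± 5.25 CPM in young cells (SD, n = 3 each; edgeR adjusted p of 1.2e-17 for Rasa1, 1.2e-16 for Frs2, 3.9e-19 for Shc1 and 8.8e-16 for Map2k2).

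Further ligands and receptors of these and neighbouring families were divided too. Of 30 further ligand genes 11 were tested, with 7 higher, 3 lower and 1 not called, and a median log2 change of 0.36. Of the higher ones, Ntf4 entered through its aged counts only. By comparison, 44.7% of all tested genes were called higher and 41.8% lower. Kitlg, encoding stem cell factor, rose 12.1-fold, with 59.7 ± 1.07 CPM in aged and 4.92 ± 0.714 CPM in young cells. Angpt1, encoding the TIE2 agonist angiopoietin 1, rose 2.46-fold, with 77.6 ± 3.51 CPM in aged and 31.5 ± 6.12 CPM in young cells. Angptl4, encoding an inhibitor of lipoprotein lipase, fell 1.71-fold, with 198 ± 1.42 CPM in aged and 339 ± 1.88 CPM in young cells.

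Of 26 further receptor genes 15 were tested, with 8 higher, 5 lower and 2 not called, beside 44.7% higher and 41.8% lower among all tested genes. Their median log2 change was 0.60. Of the higher further receptor genes, Tek, Ret and Ltk entered through their aged counts only, so a difference was built into their inclusion. The median includes these genes and is therefore not set against that of the receptor members. Csf1r, encoding the receptor of macrophage colony-stimulating factor, rose 67.5-fold, with 2697 counts in aged and 35 in young libraries (edgeR adjusted p = 1.9e-15); 1 young library was above the filter on low counts. Beside it, the defining blood cell markers Ptprc (1 count in aged and 0 in young libraries), Tyrobp (0 in aged and 5 in young) and Adgre1 (0 in aged and 16 in young) were at or near 0. Laptm5 had 3 counts in aged and 17 in young libraries, and Itgam had 20 in aged and 7 in young libraries. Cd14 averaged 21.0 CPM in aged and 80.7 CPM in young cells and Cd68 averaged 0.784 CPM in aged and 2.66 CPM in young cells, both called lower. The 8 blood cell markers, Csf1r included, summed to 42.9 to 44.1 CPM in aged and 84.0 to 84.3 CPM in young libraries, a sum carried by Cd14 and, in aged libraries, by Csf1r. Their part in the result was not tested. Pdgfrl, encoding a PDGF receptor-like protein, rose 3.23-fold, with 57.7 ± 1.48 CPM in aged and 17.9 ± 1.14 CPM in young cells. Lrp1, encoding a large endocytic receptor that modulates PDGF receptor signalling, fell 3.04-fold, with 1135 ± 24.2 CPM in aged and 3457 ± 178 CPM in young cells. Mst1r, encoding the MET-related receptor RON, fell 3.08-fold, with 1.63 ± 0.567 CPM in aged and 5.06 ± 0.672 CPM in young cells (edgeR adjusted p = 2.8e-06).

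Genes that release ligands or build the heparan sulfate chains that bind FGF, VEGF, HGF and PDGF proteins were more often lower than higher. Of 27 tested genes 16 fell, 9 rose and 2 were not called, with a median log2 change of -0.36. The shares over all tested genes were 41.8% lower and 44.7% higher. Scaled by library size alone, 13 genes of the list fell and 11 rose and the median was -0.02. Ext1, encoding a polymerase of heparan sulfate, fell 5.57-fold, with 21.2 ± 1.01 CPM in aged and 118 ± 0.946 CPM in young cells. Sdc3, encoding the heparan sulfate proteoglycan syndecan 3, fell 4.77-fold, with 20.6 ± 2.24 CPM in aged and 98.5 ± 7.37 CPM in young cells. Sulf2, encoding a sulfatase that trims heparan sulfate outside the cell, rose 2.20-fold, with 192 ± 2.34 CPM in aged and 86.9 ± 3.40 CPM in young cells. Adam10, encoding a membrane protease that releases EGF family ligands, rose 3.01-fold, with 86.5 ± 2.996 CPM in aged and 28.7 ± 2.18 CPM in young cells (edgeR adjusted p of 1.9e-17 for Ext1, 7.1e-15 for Sdc3, 2.6e-14 for Sulf2 and 4.7e-14 for Adam10).

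**Figure D4:**
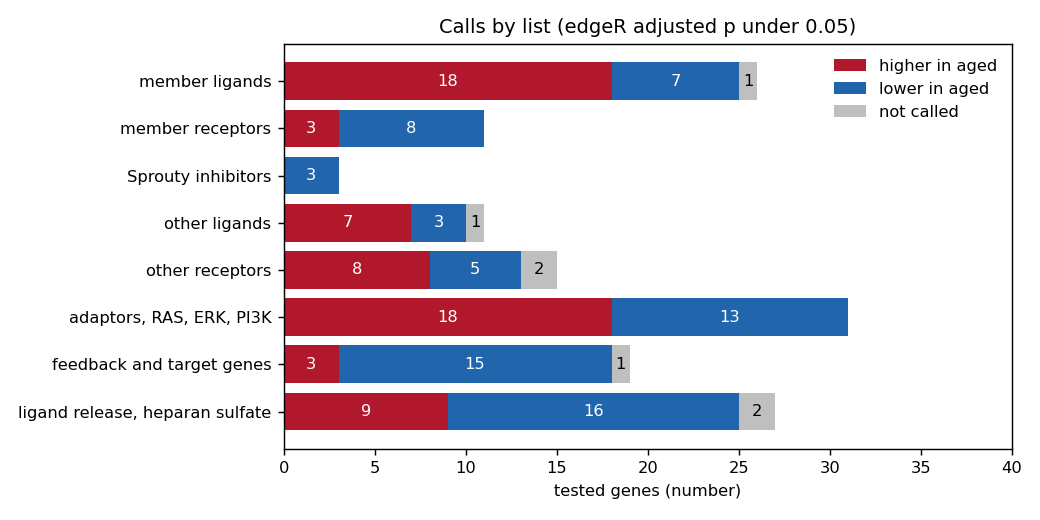
Number of tested genes called higher in aged cells (red), lower in aged cells (blue) or not called (grey) in the member groups and the further pathway lists, by edgeR's test at an adjusted p under 0.05. Ligand members are mostly red (18 of 26), receptor members mostly blue (8 of 11), and feedback and target genes mostly blue (15 of 19). Not drawn are the shares over all tested genes, 44.7% higher and 41.8% lower.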

How the data were processed

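Polyadenylated RNA of 6 libraries was sequenced after TRIzol extraction, with a VAHTS Universal V6 kit, per the labels' protocols. The authors deposited raw read counts per gene symbol; the tools listed were fastp, HISAT2 and HTSeq, with neither version nor role, per the submitters' processing notes. Build, annotation, strand setting and filters were not given in the sources used here. Total counts were 34638874 to 42479626 per library.

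The test was that of edgeR 4.0.16 (R 4.3.3): filterByExpr (minimum count 10), TMM scaling, and the quasi-likelihood F test with group as the only term, fitted on the whole table with Benjamini-Hochberg adjustment over 14273 genes. Standard errors are the log2 change divided by the square root of F. The procedure was tested on simulated data. Alternatives were DESeq2 1.42.0, other scalings, no filter, a replicate block and leaving out each library.

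Members and lists were chosen with earlier results of these data known. Each library's values are given for members called with at least a 2-fold change and at least 1 CPM in a group, for some others as examples, and for further lists the 2 strongest called genes in each direction with at least 5 CPM; some genes of these lists are not reported here by name. The pairs whose count ratios are given were chosen after their values were seen. Exact permutation of 3 against 3 libraries cannot go below p = 0.10, so ratios were not tested. RefSeq gene lengths and promoters are of GRCr8; gene symbols were matched as deposited.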

Additional observations from a re-analysis of the deposited data

How the results depend on the processing

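In all, 35 of the 40 tested members kept their direction and their side of the threshold in each of the 11 alternatives. Scaled by library size alone, the median log2 changes were 0.52 over all members (0.18 with TMM), 0.80 over ligands and -0.18 over receptors, 22 members were higher and 16 lower, and 62.3% of all called genes were higher instead of 51.7%; the shift of all genes by that scaling moves every member alike. There Pdgfra turned to 0.12, Areg to 0.18, and Erbb2 was no longer called. Leaving out 1 library, Areg, which was not called, ranged between -0.49 and 0.022 and was above 0 without young replicate 1 or 2, and Vegfd and Nrp1 lost their calls without young replicate 1; the causes were not tested. Members called higher were 19 to 21 over these settings and members called lower 18 in each.

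Same-numbered libraries did not deviate together (correlations of -0.013 to 0.0098 over 3 pairs), so the numbers were not taken to pair them. With the replicate block, 21 members were higher and 18 lower, as without it, and over all genes 6279 were higher and 5883 lower. Depth limits Pdgfb, Kdr, Angpt2, Erbb3 and Btc, which were too low to test.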

Other observations

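Across the 38 members with a RefSeq promoter window, the GC box was found in 24, the TATA box in 6, and AP-1, the cyclic AMP response element, the E-box and the Ets site in 2 each. Among all 33469 windows the shares were 33.1% for the GC box, 14.2% for the TATA box, 7.33% for AP-1, 1.83% for the cyclic AMP response element, 6.42% for the E-box and 8.75% for the Ets site. AP-1 matches lay in the Pdgfra and Ptn windows, and cyclic AMP response elements in the Areg and Flt1 windows.

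Of the members, 9 overlap another gene of the table in the RefSeq annotation. Besides Fgf2 and Nudt6, Fgf7 overlaps Fam227b, which had 164, 158 and 119 counts in aged libraries, against 83, 102 and 48 in young libraries. Fgf1 overlaps Arhgap26, which had 99, 98 and 124 counts in aged libraries, against 92, 81 and 91 in young libraries. Angptl2 overlaps Ralgps1, which had 156, 147 and 165 counts in aged libraries, against 71, 80 and 78 in young libraries.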
